A study of Mus musculus with 37 samples.

Results

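The core circadian clock was followed through 10 genes in mouse left ventricle, chosen by their symbols among the 56748 genes of the deposited table. They are the activators Arntl (now called Bmal1), Clock and Npas2, the period genes Per1, Per2 and Per3, the cryptochromes Cry1 and Cry2, and the REV-ERB genes Nr1d1 and Nr1d2. All 10 were found, and all 10 were above the limit of 0.5 FPKM in 4 libraries that admitted a gene to the tests. FPKM (fragments per kilobase, scaled between libraries) is a level per length of transcript, so levels of different genes can be compared.

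BMAL1 forms a complex with CLOCK or its paralogue NPAS2 that binds E-boxes and activates transcription of the Per and Cry genes. PER and CRY proteins accumulate, enter the nucleus and inhibit that complex, which closes the main loop. The same complex drives Nr1d1 and Nr1d2, whose products REV-ERBα and REV-ERBβ repress Arntl through sites shared with the ROR activators. In the heart the clock is known for timing the expression of metabolic and ion channel genes, and transcripts of most of these genes rise and fall over the day.

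Bulk RNA was sequenced from 37 left ventricles of young adult C57BL/6J mice of both sexes, with the apex removed, and each library was treated as 1 replicate. Naïve mice (n = 5) received isoflurane anaesthesia only, without intubation or injection. Adr mice, which the labels call sham, were anaesthetised, intubated and injected into the left ventricle with saline and, minutes later, adrenaline and were sampled 0.5, 1, 3 or 7 days later (n = 4 for each time). Arrest mice received potassium chloride in place of the saline, passed through asystole, and were resuscitated with adrenaline and chest compressions (n = 4 at each of the same times). Adrenaline and ventricular injection are thus shared by Adr and Arrest and absent from Naïve, as is intubation. The hour of collection and the light cycle are not given in the sources used here. A difference in hour and a difference in treatment cannot be told apart. By the labels, 1, 3 and 7 days are whole days after the procedure and 0.5 days is not. Groups at 0.5 days may thus differ in hour from those at other times, which cannot be told apart from the time elapsed. In tissue of mixed cells, fewer cells of a type and less RNA per cell cannot be told apart either.

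Depth ranged from 13197037 to 30179901 fragments counted on genes. Cardiomyocyte markers were abundant, with a summed level of 9692 to 11250 FPKM in Naïve libraries. Replicate 3 of Adr at 3 days stood apart. Mitochondrial genes took 9.36% of its fragments against 20.8% to 30.9% in the other libraries. Its cardiomyocyte markers summed to 2768 FPKM, its macrophage markers to 552 FPKM and its fibroblast markers to 712 FPKM. The Naïve ranges for the macrophage and fibroblast lists were 95.7 to 163 FPKM and 168 to 235 FPKM. Atrial markers (3 genes) summed to 3.03 to 6.93 FPKM in Naïve but reached 614 FPKM in a library of Adr at 1 day, 316 in Adr at 3 days, 157 in Adr at 7 days and 201 in Arrest at 7 days. The study excluded a poor-quality Adr sample at 3 days that the labels do not name, so each library of that group was also left out in turn.

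Sequence is shown first for Arntl, Per3 and Nr1d1, whose levels were correlated with each other from heart to heart, negatively for Arntl with either of the others. Promoters were taken from RefSeq (GRCm38.p6), from 250 bases before to 50 bases after the start site. They matched 9 of the 10 members with 13 start sites, and Per2 had no entry. Both strands were searched for 5 motifs. These were the E-box CACGTG, the variant E-box CACGTT, the ROR element core TAGGTCA, the cAMP response element TGACGTCA and the D-box TTATGTAA. Capitals mark a match below, and no matches overlapped.

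Arntl, chr7:113207261-113207560, + strand, second start site: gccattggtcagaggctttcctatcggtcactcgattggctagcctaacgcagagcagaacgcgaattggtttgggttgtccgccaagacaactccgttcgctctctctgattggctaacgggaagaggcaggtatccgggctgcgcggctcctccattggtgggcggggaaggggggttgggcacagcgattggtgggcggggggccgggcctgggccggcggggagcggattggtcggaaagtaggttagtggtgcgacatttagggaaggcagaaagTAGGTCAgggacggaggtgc
Per3, chr4:151044616-151044915, - strand: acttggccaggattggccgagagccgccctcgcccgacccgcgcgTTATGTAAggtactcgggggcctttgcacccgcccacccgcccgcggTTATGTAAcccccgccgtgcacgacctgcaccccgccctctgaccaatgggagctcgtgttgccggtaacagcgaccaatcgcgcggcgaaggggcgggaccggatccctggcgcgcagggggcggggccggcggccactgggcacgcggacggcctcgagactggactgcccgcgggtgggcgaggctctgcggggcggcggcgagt
Nr1d1, chr11:98775328-98775627, - strand: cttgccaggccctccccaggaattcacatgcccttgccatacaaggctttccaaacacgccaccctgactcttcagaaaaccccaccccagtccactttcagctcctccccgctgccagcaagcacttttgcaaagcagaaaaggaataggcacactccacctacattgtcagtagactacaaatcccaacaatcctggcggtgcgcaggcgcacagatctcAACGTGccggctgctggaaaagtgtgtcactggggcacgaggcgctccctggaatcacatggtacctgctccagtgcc

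The Arntl promoter held the ROR element core 30 bases downstream of its start site, the type of sequence to which REV-ERB and ROR proteins bind. That core occurred in 2.61% of the 32851 promoters searched. Per3 held D-boxes 205 and 158 bases upstream, the element read by DBP, TEF, HLF and NFIL3. A D-box occurred in 0.938% of promoters. Nr1d1 held the variant E-box on its reverse strand 28 bases upstream, a motif in 4.68% of promoters. Elsewhere among the members, Per1 and Cry1 each held an E-box (7.15% of promoters), and Cry1 and Cry2 each held a variant E-box. None of the 5 motifs was found in this window for Clock, Npas2 or Nr1d2. The cAMP response element (1.79% of promoters) was found for none of the 9 members searched. Per2 could not be searched, and only exact matches within this window were counted. A match describes letters only.

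The level of each member was compared first. Nr1d1 was the most abundant, with a median of 17.8 FPKM over the 37 libraries, followed by Nr1d2 at 14.8 and Per1 at 11.3. Clock stood at 4.24, Cry2 at 3.50, Arntl at 2.91 and Cry1 at 2.89 FPKM. Per2 (1.58), Per3 (1.17) and Npas2 (1.14) were the lowest. Hearts of 1 group differed most in Per2, whose coefficient of variation within groups was 46.5%, and in Per3 at 41.3%. Clock was the steadiest at 15.7%. Counting error alone averaged from 2.81% for Nr1d2 to 10.6% for Npas2, well under the spread between hearts. Against the 16530 genes tested, the residual SD of Per2 lay at the 82.8 percentile and that of Per1 at 78.7, while Clock lay at 11.0. The highest Per2 library held 8.05 times the level of the lowest, and the highest Clock library 2.19 times.

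**Figure D1:**
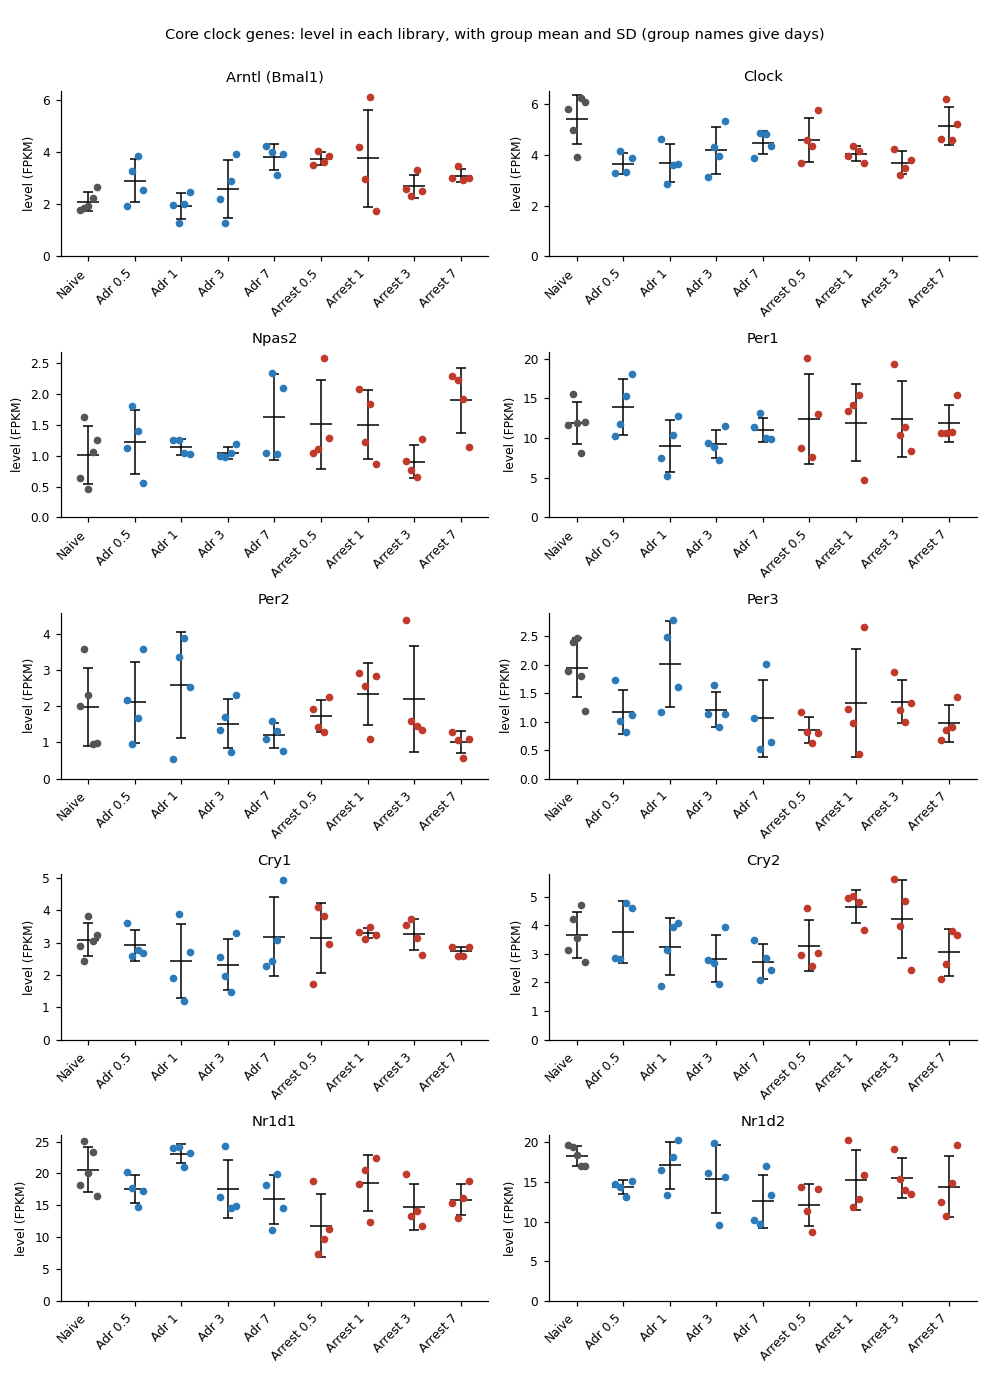
Level in FPKM (vertical axis, from 0) of the 10 core clock genes in each of 37 libraries (points), by group (horizontal axis, days after the procedure), with the group mean and SD (n = 5 for Naïve and 4 for the others). Nr1d1 has its lowest group mean, 11.8 FPKM, in Arrest at 0.5 days, and Arntl is at most 2.67 FPKM in every Naïve library.

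Arntl encodes the obligate partner of CLOCK and NPAS2 and is listed on chromosome 7 (112806672 to 112913333, + strand, ENSMUSG00000055116). Coordinates of genes are those of the deposited table, whose build is not named, and they are not those of GRCm38. The 5 Naïve libraries held 1.78, 1.84, 1.93, 2.23 and 2.67 FPKM. In Arrest at 0.5 days the values were 3.48, 4.03, 3.59 and 3.84 FPKM, all above every Naïve library. Adr at 7 days held 4.24, 4.01, 3.09 and 3.90 FPKM, and Arrest at 7 days 2.98, 3.46, 2.91 and 2.99 FPKM, again all above Naïve. Atrial markers ran from 6.07 to 157 FPKM in that Adr group and from 1.17 to 201 FPKM in that Arrest group, and their part in these levels was not tested. Arrest at 1 day was the most scattered, at 4.19, 2.97, 6.10 and 1.73 FPKM, and replicate 4 fell below the lowest Naïve library. The group means ran from 3.81 ± 0.499 FPKM (SD, n = 4) in Adr at 7 days down to 1.93 ± 0.486 in Adr at 1 day, with Naïve next to last at 2.09 ± 0.365 (n = 5). The difference from Naïve on the log2(FPKM + 1) scale was 0.62 ± 0.20 (SE) in Arrest at 0.5 days (limma adjusted p = 0.0758) and 0.64 ± 0.20 in Adr at 7 days (adjusted p = 0.595). In Arrest at 1 day it was 0.54 ± 0.20 (adjusted p = 0.0901). None of the 3 passed the threshold of 0.05. Without replicate 4 the difference in Arrest at 1 day was 0.78, with an adjusted p of 0.0109. That was the strongest of 25 alternatives, over which the difference went down to 0.32 and the limma adjusted p up to 0.625.

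Clock, which encodes the partner of BMAL1, is listed on chromosome 5 (76357715 to 76452639, - strand, ENSMUSG00000029238). Naïve libraries held 5.80, 4.98, 3.92, 6.22 and 6.09 FPKM, the highest group mean of the 9 at 5.40 ± 0.958 FPKM. Adr at 0.5 days held 3.28, 4.14, 3.33 and 3.88 FPKM, and Adr at 1 day 4.63, 2.84, 3.61 and 3.66 FPKM. These overlapped Naïve only through Naïve replicate 3, at 3.92 FPKM. The log2 difference was -0.45 ± 0.13 (SE) both at 0.5 days (limma adjusted p = 0.115) and at 1 day (0.0921). Without Naïve replicate 3 it reached -0.54 at 1 day, with an adjusted p of 0.0451. This was the only 1 of 25 alternatives to pass, and over them the difference ran from -0.56 to -0.34 (limma adjusted p up to 0.345). Arrest at 3 days held 4.24, 3.21, 3.50 and 3.81 FPKM (log2 difference -0.44 ± 0.13, adjusted p = 0.130), and by 7 days all 4 Arrest libraries, at 4.62, 6.19, 4.57 and 5.22 FPKM, lay above all 4 of day 3. That step was 0.39 ± 0.14 on the log2 scale (adjusted p = 0.541). Npas2, the paralogue of Clock, is listed on chromosome 1 (39232812 to 39402317, + strand, ENSMUSG00000026077) and is among the thinnest in counts, with as few as 29 fragments in a library. Its group means lay between 0.901 ± 0.264 FPKM in Arrest at 3 days and 1.89 ± 0.530 in Arrest at 7 days, and Naïve (1.01 ± 0.471) was next to last.

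The period genes encode partners of the cryptochromes in the inhibiting complex, and Per1 and Per2 are also known as early targets of cAMP and glucocorticoid signals. Per1 (chromosome 11, 68986043 to 69000786, + strand, ENSMUSG00000020893) had group means from 8.98 ± 3.29 FPKM in Adr at 1 day to 13.9 ± 3.52 in Adr at 0.5 days, with Naïve at 11.8 ± 2.65. Arrest at 0.5 days spanned 7.61 to 20.1 FPKM within 4 hearts. For Per2 (chromosome 1, 91343704 to 91387046, - strand, ENSMUSG00000055866) the Naïve libraries held 2.01, 3.59, 2.31, 0.967 and 0.990 FPKM, and those of Adr at 1 day 0.546, 3.35, 3.89 and 2.54 FPKM. The span within either of these groups was as wide as the span of all 9 group means, which ran from 1.01 ± 0.310 FPKM in Arrest at 7 days to 2.58 ± 1.47 in Adr at 1 day. All 4 libraries of Arrest at 7 days (1.30, 1.06, 0.568 and 1.1 FPKM) lay below all 4 of day 3 (4.39, 1.58, 1.46 and 1.35 FPKM), and the log2 step was -0.59 (limma adjusted p = 0.716).

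Per3 (chromosome 4, 151088109 to 151129122, - strand, ENSMUSG00000028957) held 1.88, 2.40, 2.47, 1.80 and 1.19 FPKM in Naïve. Arrest at 0.5 days held 1.17, 0.825, 0.616 and 0.793 FPKM, all below the lowest Naïve library, by a narrow gap at replicate 1. The log2 difference was -0.66 ± 0.21 (SE), with a limma adjusted p of 0.0817. Group means fell from 2.01 ± 0.753 FPKM in Adr at 1 day and 1.95 ± 0.518 in Naïve to 0.850 ± 0.230 in Arrest at 0.5 days. Per3 lies wholly within the span of Camta1 on the same strand (2.47 to 7.86 FPKM), and how reads of overlapping genes were assigned is not given in the sources used here. Camta1 differed from Naïve by -0.05 ± 0.14 on the log2 scale in Arrest at 0.5 days (adjusted p = 0.914).

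The cryptochromes encode the main inhibitors of the activating complex. Cry1 (chromosome 10, 84967564 to 85020928, - strand, ENSMUSG00000020038) had the narrowest order of group means, from 2.32 ± 0.784 FPKM in Adr at 3 days to 3.29 ± 0.149 in Arrest at 1 day, a ratio of 1.42, with Naïve at 3.09 ± 0.509. Cry2 (chromosome 2, 92233991 to 92264388, - strand, ENSMUSG00000068742) was highest in Arrest at 1 day, where its libraries held 4.96, 5.01, 4.81 and 3.82 FPKM. Adr at 1 day held 1.88, 3.13, 3.95 and 4.06 FPKM, overlapping through Arrest replicate 4. The log2 difference between them was 0.44 ± 0.21 (limma adjusted p = 0.735).

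Nr1d1, which encodes REV-ERBα, is listed on chromosome 11 (98658758 to 98666159, - strand, ENSMUSG00000020889), and it alone among the members passed a test. Naïve libraries held 18.2, 25.1, 20.01, 23.4 and 16.5 FPKM. Arrest at 0.5 days held 18.8, 7.32, 9.66 and 11.3 FPKM. Replicate 1 lay inside the Naïve range and the other 3 lay below it. The mean was 11.8 ± 4.96 FPKM (SD, n = 4) against 20.6 ± 3.59 in Naïve (n = 5), and the log2 difference was -0.82 ± 0.20 (SE; 95% interval -1.23 to -0.41; limma adjusted p = 0.0230). The call was lost without Arrest replicate 2 (adjusted p = 0.140), without Arrest replicate 3 (0.0546), without Naïve replicate 2 (0.0542), with the sample description number as a covariate (0.0517), and when only these groups were fitted (0.119). Over the 25 alternatives the difference stayed between -1.05 and -0.64. The alternative without scaling could hardly change it, as its values differed from the main ones only by a constant factor. Adr at 1 day had the highest mean, 23.1 ± 1.46 FPKM, and its libraries (24.03, 24.2, 21.02 and 23.1 FPKM) all lay above those of Adr at 0.5 days (20.2, 17.8, 14.8 and 17.3 FPKM). That step was 0.39 on the log2 scale, with a limma adjusted p of 1.000. Atrial markers ran from 0.608 to 614 FPKM in Adr at 1 day and from 4.44 to 33.6 FPKM in Adr at 0.5 days, and their part in the step was not tested. The end of Nr1d1 overlaps Thra on the opposite strand by 1075 bases, and whether strand was counted is not given in the sources used here. Thra held 9.72 to 20.7 FPKM and differed from Naïve by -0.26 ± 0.14 in Arrest at 0.5 days (adjusted p = 0.328).

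Nr1d2, which encodes REV-ERBβ, is listed on chromosome 14 (4230569 to 4265642, + strand, ENSMUSG00000021775). Its Naïve libraries were close together at 19.6, 19.4, 18.4, 17.0 and 17.0 FPKM. Adr at 0.5 days held 14.8, 14.4, 13.1 and 15.2 FPKM, and Arrest at 0.5 days 14.4, 11.3, 8.73 and 14.1 FPKM. All 8 values lay below every Naïve library. The log2 differences were -0.33 ± 0.19 (limma adjusted p = 0.446) and -0.58 ± 0.19 (0.0798). Without replicate 3 of Adr at 3 days, a library of neither group whose spread enters the common fit, the adjusted p for Arrest at 0.5 days was 0.0379. Only this 1 of 25 alternatives passed, and the limma adjusted p went up to 0.231 in the others.

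The 8 comparisons with Naïve share the same 5 libraries, so their counts are not independent. In Arrest at 0.5 days 1 of 10 members passed the adjusted threshold, against 3.21% of all genes tested, and 4 of 10 had an unadjusted p of at most 0.05, against 18.2%. Groups did not overlap for 3 of 10 (Arntl higher, Per3 and Nr1d2 lower), against 8.2% of all genes. No member passed in the other 7 comparisons, by this test or by voom on fragment counts. In Adr at 0.5 days the share of all genes called was 0.188%, and 2 of 10 members had an unadjusted p of at most 0.05 (14% of all genes). Nr1d2 alone did not overlap there (6.33%). In Adr at 1 day 0.69% of genes were called, and Clock alone had such a p (14.7%). In Adr at 3 days 0% were called, and again Clock alone had such a p (13.9%). For Adr at 7 days the share called was 0%, 3 of 10 members had such a p (6.15%), and Arntl did not overlap (1.79%). Arrest at 1 day had 7.11% of genes called and 2 of 10 members with such a p (21.7%). Arrest at 3 days had 0.139% called and 2 of 10 (13.7%), and Arrest at 7 days had 0% called and 3 of 10 (5.15%), with Arntl not overlapping (1.69%). With 10 members and shared Naïve libraries, these counts were not tested against the shares of all genes.

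**Figure D2:**
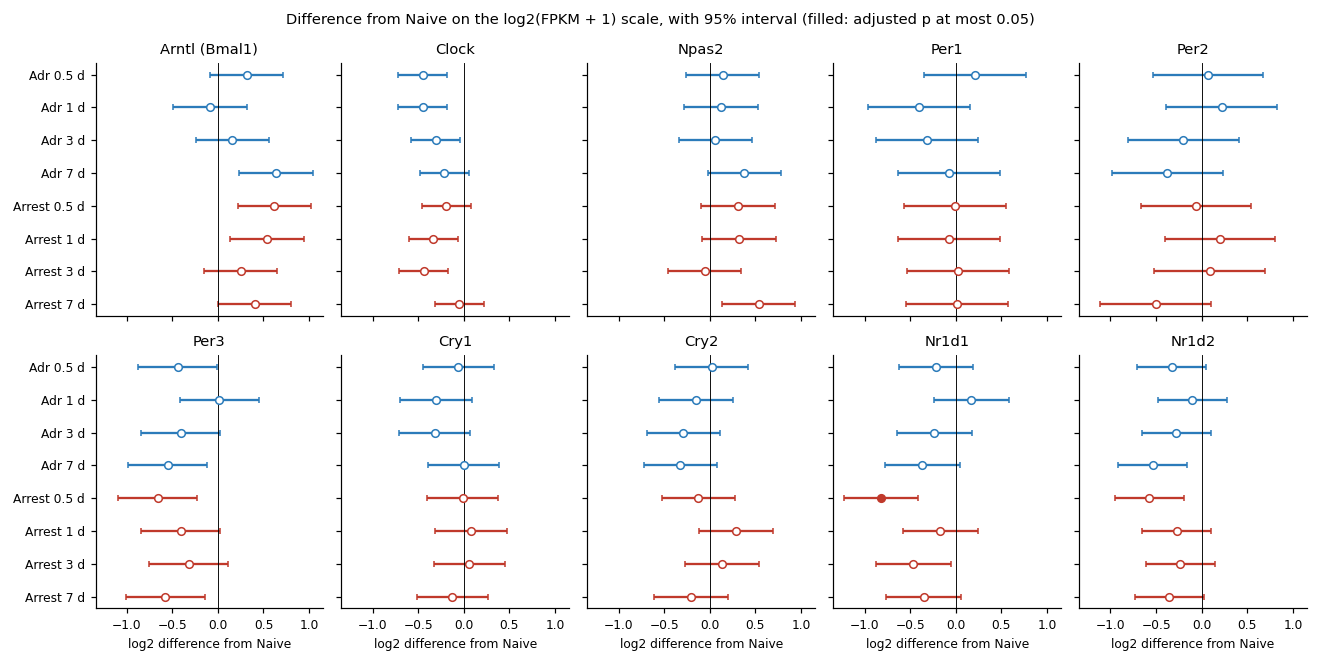
Difference of each Adr (blue) and Arrest (red) group from Naïve for the 10 core clock genes on the log2(FPKM + 1) scale (horizontal axis), with the 95% interval from the limma fit and filled points for an adjusted p of at most 0.05. The single filled point is Nr1d1 in Arrest at 0.5 days, at -0.82.

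Arrest was compared with Adr at the same time to separate asystole and compressions from adrenaline and injection. No member passed at any time, by limma or by voom. At 0.5 days 0% of all genes were called, and 1 of 10 members (Nr1d1, log2 difference -0.60 ± 0.21, adjusted p = 1.000) had an unadjusted p of at most 0.05, against 3.86% of all genes. At 1 day 0% were called and 2 of 10 had such a p (6.59%), namely Cry2 and Arntl (0.62 ± 0.21, adjusted p = 0.565). At 3 days 0% were called and 0 of 10 had such a p (5.37%). At 7 days 0.00605% were called and 0 of 10 had such a p (2.52%).

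Consecutive times within an arm gave no call for a member either, by limma or by voom. From 0.5 to 1 day in Adr 0% of genes were called, 1 of 10 members (Per1, log2 difference -0.61 ± 0.29, adjusted p = 1.000) had an unadjusted p of at most 0.05 (2.79% of all genes), and Nr1d1 did not overlap (2.76%). From 1 to 3 days in Adr 0.0907% were called and 0 of 10 had such a p (8.8%). From 3 to 7 days in Adr 0% were called and Arntl alone had such a p (5.29%). In Arrest the step from 0.5 to 1 day called 0% of genes, and Nr1d1 alone had such a p (2.93%), with a log2 difference of 0.65 ± 0.21. The step from 1 to 3 days called 0.175% and 0 of 10 had such a p (12.2%). The step from 3 to 7 days called 0%, 2 of 10 had such a p (7.42%), and Clock and Per2 did not overlap (4.77%).

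Tests over several groups together called no member, by limma or by voom. For any difference among the 9 groups 3.9% of genes were called, and 4 of 10 members (Arntl, Clock, Per3 and Nr1d1) had an unadjusted p of at most 0.05, against 17.4%. The lowest adjusted p was that of Nr1d1, 0.0773. Among the 4 Adr times 0.206% were called and 1 of 10 had such a p (8.45%). Among the 4 Arrest times 1.33% were called and 2 of 10 had such a p (13.5%). For a difference between the arms in their course over time 0% were called and 1 of 10 had such a p (3.09%). When all 36 pairs of the 9 groups were tested in the same fit, an addition made after the data were seen, 1 of 360 tests passed, that of Nr1d1 in Arrest at 0.5 days against Naïve. In the order of group means of each member, therefore, no neighbouring groups differed at an adjusted p of at most 0.05. That result does not show that their levels were equal.

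Hearts of the same group were then compared with each other, to ask which members vary together once differences between groups are removed. For each of 45 pairs of members, the deviations of log2(FPKM + 1) from the group means were correlated over 37 libraries, with 100000 permutations of libraries within groups (two-sided). The Benjamini-Hochberg adjusted p was at most 0.05 for 8 pairs, 5 positive and 3 negative, and for 7 of the 45 pairs by Spearman's rho. Per3 was in 5 of the 8. How often pairs of other genes pass the same test was not computed. The count therefore cannot be called particular to the clock genes.

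Arntl and Per3 moved oppositely, with r = -0.69 (permutation p = 0.00014, adjusted p = 0.00300) and rho = -0.59 (p = 0.00141, adjusted 0.0173). The sign was negative in all 9 groups, and without the 2 libraries farthest from the median of Arntl r was -0.60. Arrest at 1 day shows it in single hearts. Replicate 3 held 6.10 FPKM of Arntl and 0.435 of Per3, while replicate 4 held 1.73 and 2.66 FPKM. Arntl and Nr1d1 were likewise opposed, with r = -0.56 (permutation p = 0.0002, adjusted p = 0.00300) and rho = -0.53 (p = 0.00188, adjusted 0.0173), negative in 8 of 9 groups. That relation fell to r = -0.36 without the 2 farthest libraries (permutation p = 0.00378). Scaled by fragments counted on genes it was -0.47, with an adjusted p of 0.0560. Per3 and Nr1d1 rose and fell together, with r = 0.64 (permutation p = 3e-05, adjusted p = 0.00135) and rho = 0.60 (p = 0.00045, adjusted 0.0106), positive in 8 of 9 groups and 0.69 without the 2 farthest.

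**Figure D3:**
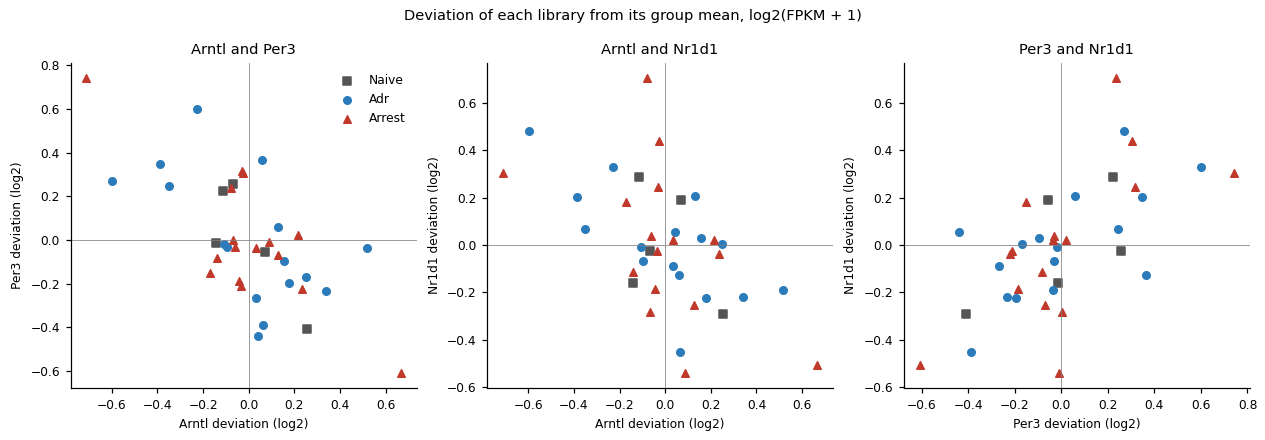
Deviation of each library from its group mean in log2(FPKM + 1), for Arntl against Per3 (left), Arntl against Nr1d1 (centre) and Per3 against Nr1d1 (right), with Naïve as squares, Adr as circles and Arrest as triangles. The clouds slope down for Arntl with Per3 (r = -0.69) and with Nr1d1 (r = -0.56) and up for Per3 with Nr1d1 (r = 0.64).

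Among the repressors, Per2 and Per3 moved together (r = 0.58, permutation p = 0.00067, adjusted p = 0.00603; rho = 0.55, p = 0.00192, adjusted 0.0173), as did the REV-ERB pair Nr1d1 and Nr1d2 (r = 0.54, permutation p = 0.00559, adjusted p = 0.0405; rho = 0.52, p = 0.00536, adjusted 0.0345). Per3 also followed Nr1d2 (r = 0.50, permutation p = 0.00637, adjusted p = 0.0405, with rho = 0.53, p = 0.0038, adjusted 0.0285). Npas2 opposed Per3 (r = -0.50, permutation p = 0.0072, adjusted p = 0.0405), and its rho of -0.49 (p = 0.00899) had an adjusted p of 0.0506. Per1 and Cry2 moved together (r = 0.58, permutation p = 0.00056, adjusted p = 0.00603, with rho = 0.61, p = 0.00047, adjusted 0.0106). Without the 2 libraries farthest from the first gene's median, r was 0.52 for Per2 and Per3, 0.51 for Nr1d1 and Nr1d2, 0.54 for Per3 and Nr1d2, -0.45 for Npas2 and Per3, and 0.64 for Per1 and Cry2. Without Adr replicate 2 at 3 days 5 pairs passed, and the adjusted p rose to 0.0601 for Npas2 with Per3 and to 0.0644 for Nr1d2 with Per3 and with Nr1d1. Without Adr replicate 3 at 3 days that of Per3 with Nr1d2 was 0.0685. Clock and Cry1 were in none of the 8, and r of Cry1 with every other member lay between -0.22 and 0.15.

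**Figure D4:**
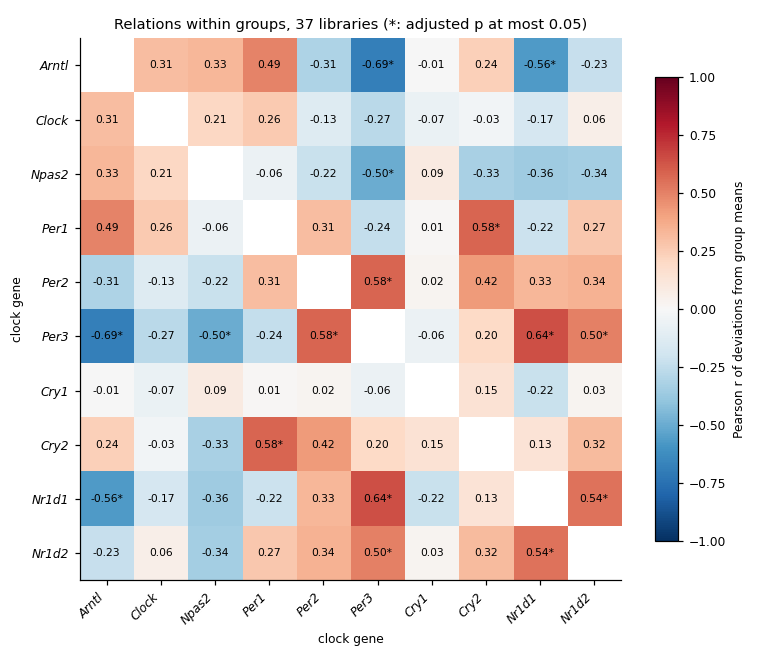
Pearson r between the deviations from group means of each pair of core clock genes over 37 libraries (colour and number, from -1 to 1), with an asterisk for an adjusted p of at most 0.05. Per3 carries 5 of the 8 marked pairs, and the row of Cry1 is near 0 throughout.

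Some measures of the libraries moved with single members within groups, as descriptions over the same 37 libraries. Per1 followed the summed level of the 4 endothelial markers (r = 0.71), and it did so without replicate 3 of Adr at 3 days (0.71). Nr1d2 followed the share of mitochondrial fragments (r = 0.61, and 0.46 without that library) and opposed the summed macrophage markers (r = -0.54, and -0.35 without it). Cry2, which moved with Per1, had r = 0.40 with the endothelial markers, also without that library. The summed cardiomyocyte markers had r = -0.31 with Clock and -0.16 with Per2. Without that library these were -0.47 and -0.45. The part of these measures in the relations of Per1, Per2, Cry2 and Nr1d2 was not tested. Over all 10 measures examined (fragments counted, genes above 0, mitochondrial share, description number and the 6 marker lists), r with Arntl ran from -0.30 for cardiomyocyte markers to 0.36 for fibroblast markers. For Per3 it ran from -0.15 for neutrophil markers to 0.33 for the description number, and for Nr1d1 from -0.19 for fibroblast markers to 0.17 for the mitochondrial share. Without replicate 3 of Adr at 3 days these ranges were -0.29 to 0.37 for Arntl, -0.17 to 0.32 for Per3 and -0.12 to 0.06 for Nr1d1. Their part in the relations of these 3 genes was not tested either. The opposite-strand neighbour Thra had r = 0.13 with Nr1d1, and Camta1 had r = 0.09 with Per3.

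Around the Nr1d1 call, marker lists were set side by side for Naïve and Arrest at 0.5 days. The summed level of 5 neutrophil markers ran from 0 to 9.74 FPKM in Naïve, where 2 of the 5 were at 0 in every library, and from 3.60 to 32.2 FPKM in Arrest. Macrophage markers ran from 95.7 to 163 FPKM and from 115 to 176 FPKM, endothelial markers from 140 to 151 and from 127 to 168, fibroblast markers from 168 to 235 and from 211 to 231, and cardiomyocyte markers from 9692 to 11250 and from 8043 to 11976 FPKM. Of these lists the tests called 1 gene, where 3.21% of all genes were called, a count near that share for lists of this size. It was the endothelial receptor Kdr, lower by a log2 difference of -0.95 ± 0.22 (limma adjusted p = 0.0181). Their part in the Nr1d1 difference was not tested.

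Other genes of the pathway were read from lists. Of 12 clock-linked transcription factors 11 were tested, and in Arrest at 0.5 days 1 rose and 1 fell, where 3.21% of all genes were called. Nfil3, which encodes a repressor at D-boxes, rose by 1.56 ± 0.31 on the log2 scale (limma adjusted p = 0.00614), and Dbp, which encodes an activator at the same element, changed by -1.50 ± 0.39 (adjusted p = 0.0294). The list's median was -0.12 against 0.03 over all genes, and the median of the 10 core members was -0.09. Of 20 regulators of clock proteins 19 were tested, and the calls against Naïve were 2 in Arrest at 1 day, where 7.11% of all genes were called, a share near that of the list. Both were kinases that fell, Gsk3b with a log2 difference of -0.50 ± 0.12 (limma adjusted p = 0.0106) and Prkaa2 with -0.66 ± 0.21 (0.0486). Prkaa2 was named after its values were seen. Among 12 clock-controlled genes, all tested, 1 rose and 1 fell in Arrest at 1 day (7.11% of all genes called), Tspan4 with a log2 difference of 0.81 ± 0.21 (limma adjusted p = 0.0164) and the transferrin receptor gene Tfrc with -1.96 ± 0.50 (0.0139), both named after their values were seen.

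In the glucocorticoid response list, 2 of 7 genes rose in Arrest at 0.5 days (3.21% of all genes called) and 3 of 7 at 1 day (7.11%). Fkbp5, a chaperone of the receptor, rose by 2.13 ± 0.57 at 0.5 days (limma adjusted p = 0.0358) and by 2.28 ± 0.57 at 1 day (0.0138), and Cdkn1a, which encodes the cell cycle inhibitor p21, by 2.01 ± 0.44 (0.0107) and 1.72 ± 0.44 (0.0151). The third at 1 day was Zbtb16 (1.88 ± 0.54, 0.0293), which was named after its values were seen.

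The genes most like 3 of the members were found by Pearson's r of log2(FPKM + 1) over all 37 libraries, groups included, among 11437 genes. Highest with Arntl were Dcbld1 (0.67), Gm10638 (0.65), Gm44710 (0.64), Cdkn1a (0.63) and Pnrc1 (0.61). Lowest with Arntl were Dbp (-0.65), Gtpbp3 (-0.63), Nat10 (-0.59), Decr2 (-0.59) and Ephb3 (-0.58). Nr1d1 was closest to Dbp (0.75), then Btbd3 (0.64), Zfp84 (0.61), Tef (0.56) and Eml2 (0.56), and farthest from Nfil3 (-0.74), Fosl2 (-0.61), Litaf (-0.59), Dcbld1 (-0.59) and Inhbb (-0.58). Dbp and Tef encode activators at the D-box and Nfil3 the repressor, so transcripts of both kinds of D-box factor stood at the ends of the Nr1d1 ranking. Per2 was nearest to Tns2 (0.71), Rhobtb1 (0.71), Mcf2l (0.66), Zbtb16 (0.65) and Tef (0.63), and farthest from Hnrnpc (-0.65), Egr3 (-0.63), Hnrnpa2b1 (-0.63), Tbck (-0.62) and Trp53i11 (-0.61). With group means removed, Dbp had r = 0.67 with Nr1d1, 0.71 with Per3 and -0.54 with Arntl, and Zbtb16 had r = 0.72 with Per2. The libraries share depth scaling and tissue composition, and these values carry no test.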

How the data were processed

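Left ventricular RNA was sequenced by Novogene and, after FastQC, reads were aligned by HISAT2. The authors deposited FPKM values for 56748 genes in 37 libraries, and every per-sample column was used (0 left over). The build, annotation, counter and strand are not given in the sources used here. Of 52073 genes shared with GENCODE M21, 1472 had the same coordinates. The product of FPKM and gene length came in whole steps for 100% of values above 0 (tolerance 0.01 of a step), and the number of steps was taken as the fragments counted.

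Groups came from the sample labels. These name no animals, and following the methods of the study each library was taken as the heart of 1 mouse. Scaling by median ratios gave the same factor (1.01) for each library. The deposited values were thus already scaled in this way, and not by depth alone. Values entered as log2(FPKM + 1), a scale that understates changes of low genes. The fit covered 16530 genes reaching 0.5 FPKM in 4 or more libraries and used limma 3.58.1 under R 4.3.3 (eBayes, trend, a mean per group, 28 residual degrees of freedom). Benjamini-Hochberg adjustment ran over all genes of a comparison, with a threshold of 0.05. The script was tested on simulated data: of genes changed by 0.8 or 1 on the log2 scale in a simulated Arrest group at 0.5 days, 48.1% were called (16680 genes tested). Relations were computed with numpy 2.4.6 in Python 3.11.15, and figures were drawn with matplotlib 3.10.9.

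All 10 members were described. Of the other lists, genes called in 2 or more comparisons with Naïve and the 3 of smallest adjusted p in Arrest at 1 day were named, and for Arntl, Per2 and Nr1d1 the 5 genes of highest and the 5 of lowest r (mean of 1 FPKM or more). The members and lists were chosen with earlier results of these data known. Alternatives were no scaling, quantile scaling, values per fragment counted, a pseudocount of 0.1, other filters, removal of a length trend, array weights, the description number as a covariate, only the groups compared, voom on the fragments, the replicate block, and each library left out.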

Additional observations from a re-analysis of the deposited data

Results flagged for a closer look

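In 5 of 90 sets of values (10 genes in 9 groups), 1 library lay far from the others of its group by Dixon's ratio, and chance flags about 1 in 20. In Arrest at 7 days, Arntl was 3.46 FPKM in replicate 2 against 2.91 to 2.99 FPKM in the others, and Per1 was 15.4 FPKM in replicate 4 against 10.6 to 10.8. In Arrest at 0.5 days, Npas2 was 2.58 FPKM in replicate 3 against 1.04 to 1.29. In Arrest at 3 days, Per2 was 4.39 FPKM in replicate 1 against 1.35 to 1.58. In Arrest at 1 day, Cry2 was 3.82 FPKM in replicate 4 against 4.81 to 5.01. No library stood out for more than 1 gene.

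Nr1d1 lay below the Naïve mean in all 4 libraries of Adr at 0.5 days and above it in all 4 of Adr at 1 day. The group means differed by -5.60 FPKM (0.5 days minus 1 day). The difference was not called in the limma fit, with an adjusted p of 1.000.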

How the results depend on the processing

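Across 22 tests, the number of members called kept within 1.5 times its value in all settings except these. With the description number as a covariate the count for Arrest at 0.5 days against Naïve was 0 in place of 1, and with array weights that for Arrest at 1 day was 1 (Arntl) in place of 0. With each library left out in turn, the count ran from 0 to 2 for Arrest at 0.5 days, from 0 to 2 for Arrest at 1 day, from 0 to 1 for Adr at 1 day, and from 0 to 1 for the test over 9 groups. It was 0 for Arrest at 0.5 days without Naïve replicate 2, Arrest replicate 2 or Arrest replicate 3, and 2 (Nr1d1 and Nr1d2) without Adr replicate 3 at 3 days. For Arrest at 1 day it was 1 (Clock) without Naïve replicate 3 and 2 (Arntl and Per3) without Arrest replicate 4. For Adr at 1 day it was 1 (Clock) without Naïve replicate 3. Over 9 groups it was 1 without Arrest replicate 1 at 0.5 days (Nr1d1), replicate 4 at 1 day (Arntl) or replicate 1 at 3 days (Nr1d1). When only the compared groups were fitted, the 1 member called in Arrest at 0.5 days was Arntl (adjusted p = 0.0329), not Nr1d1. The cause was not tested. The pairs of members with a passing correlation numbered 8, and 5 to 8 with each Adr library at 3 days left out, the lowest without replicate 2. Entering the replicate number as a block left the count for Arrest at 0.5 days at 1 and that for every other test at 0. Over 144 same-numbered pairs of samples from different groups, the median correlation of deviations was 0.00168, against -0.00295 for pairs with other numbers. Of the 144, 11 lay over 0.1, the highest at 0.266. Whether same-numbered samples share more than a number was not tested further. No member change with an unadjusted p of at most 0.05, and none of the 8 relations, changed sign. Of these 8 pairs, 6 passed with scaling per fragment (Arntl with Per1 passed in addition), 6 with regression on the description number, 7 without Adr replicate 3 at 3 days (again with Arntl and Per1 in addition), and 8 with removal of the length trend, added after the data were seen. Low counts limit Npas2, Per2, Per3 and Cry1, with as few as 29, 45, 54 and 65 fragments in a library.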
